A study of Mus musculus with 4 samples.

Results

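The chromosome 12 cluster examined here is a set of 8 neighbouring mouse genes, Gm8300, BB287469, Gm1995, Gm2016, Gm2022, Gm6803, Gm5662 and Gm5039, associated with the 2-cell embryo and named here for the initiation factor gene Eif1a. They were chosen by gene symbol out of 25170 genes, from a list drawn up with their differences between these libraries already known, so the differences below are descriptions and no test was made. RNA was sequenced from mouse embryonic stem cells in 4 libraries, 1 per group. WT is the E14 line with a wild type genotype, SO is wild type cells under an inhibitor treatment that the labels call SO, Ldha_KO carries an Ldha knockout and Ldhb_KO an Ldhb knockout. All cultures were kept on gelatin in a medium containing serum and LIF, and polyadenylated RNA was measured. The labels do not spell out SO, its dose or its duration, nor say how many clones a knockout library holds. The study asks how lactate dehydrogenase bears on the 2-cell state of these cells.

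The 2-cell state is a transcriptional programme of the mouse embryo at the onset of its own transcription, which a small and changing share of cultured embryonic stem cells enters. The transcription factor Dux, the Zscan4 family and transcripts driven by the endogenous retrovirus MERVL mark it. The cluster is named for its resemblance to Eif1a, which encodes the translation initiation factor eIF1A. That factor binds the small ribosomal subunit and, together with eIF1, helps the scanning ribosome find the start codon. Mice carry Eif1a on an autosome and Eif1ax on the X chromosome.

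The label of an Eif1a-like cluster was borne out by coding sequence for 7 of the 8 members. In GENCODE release M21 each of these 7 has a coding sequence of 432 bases, the same length as in Eif1a and Eif1ax. Identity, counted base by base from the start codon without gaps, was 97.0% to 99.1% over the 21 pairs of these members, with a median of 97.7%. It was 93.8% to 95.1% with Eif1a and 83.6% to 85.0% with Eif1ax. Gm1995 is annotated as a pseudogene without a coding sequence, and its transcript shared no window of 50 bases with any other member. By these measures it was not shown to be an Eif1a-like copy, although it stands in the list. Shared windows can miss a diverged copy, since Eif1ax also shared no window of 50 bases with a member. The transcript of Gm1995 was not aligned to Eif1a. Gm5039 is a transcribed pseudogene in RefSeq and protein coding in GENCODE.

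The first 90 coding bases are shown because they make plain why reads from these genes are hard to assign to 1 copy. Each line runs 5′ to 3′ and comes from the GENCODE transcript, with capitals where a sequence differs from that of Gm5662, the copy with the highest value in SO. Over these bases Gm8300 had 0 differences from Gm5662, Gm2022, Gm2016 and BB287469 had 1 each and Gm6803 and Gm5039 had 2 each, while Eif1ax had 15. Eif1a is not shown, and over the whole coding sequence it is closer to the members than Eif1ax, at 93.8% to 95.1% identity.
Gm5662: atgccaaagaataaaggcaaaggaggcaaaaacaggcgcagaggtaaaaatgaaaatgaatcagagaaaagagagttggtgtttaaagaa
Gm8300: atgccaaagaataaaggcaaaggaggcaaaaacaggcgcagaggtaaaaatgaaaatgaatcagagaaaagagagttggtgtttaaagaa
BB287469: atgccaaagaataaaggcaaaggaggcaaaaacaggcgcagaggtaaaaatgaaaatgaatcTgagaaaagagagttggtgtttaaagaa
Gm2016: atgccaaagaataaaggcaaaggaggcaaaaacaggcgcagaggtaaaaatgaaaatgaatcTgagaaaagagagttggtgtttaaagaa
Gm2022: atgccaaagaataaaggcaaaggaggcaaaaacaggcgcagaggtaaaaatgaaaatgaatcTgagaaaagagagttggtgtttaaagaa
Gm6803: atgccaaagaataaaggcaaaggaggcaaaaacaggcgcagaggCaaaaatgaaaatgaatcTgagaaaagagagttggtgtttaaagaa
Gm5039: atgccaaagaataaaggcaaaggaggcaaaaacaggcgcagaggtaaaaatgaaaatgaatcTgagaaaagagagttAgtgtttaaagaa
Eif1ax: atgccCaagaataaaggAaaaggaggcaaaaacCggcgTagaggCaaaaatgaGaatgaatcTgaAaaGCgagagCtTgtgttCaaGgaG

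Over whole transcripts the copies differed in how far they can be told apart. When each transcript was cut into all its windows of 50 bases, 82.7% of the windows of Gm5039 and 73.4% of those of Gm8300 occurred in no other gene of GENCODE M21. The share was 55.7% for Gm1995, 22.1% for Gm5662, 18.7% for Gm2016, 7.25% for Gm6803, 3.38% for BB287469 and 2.85% for Gm2022. Gm2016 shared 1291 of its 1717 windows with Gm5662, and BB287469 shared 1700 of 1802 with Gm4027, a neighbour whose coding sequence is identical to that of a member. Gm1995 shared 1046 of 2553 windows with the neighbouring pseudogene Gm7104 and 42 with Rexo1, a gene on chromosome 10. Eif1a itself held 14 to 68 windows of each of the 7 coding members. These windows describe the annotation, and where the reads fell was not measured. The sources used here do not say how the authors assigned reads shared between copies.

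**Figure D1:**
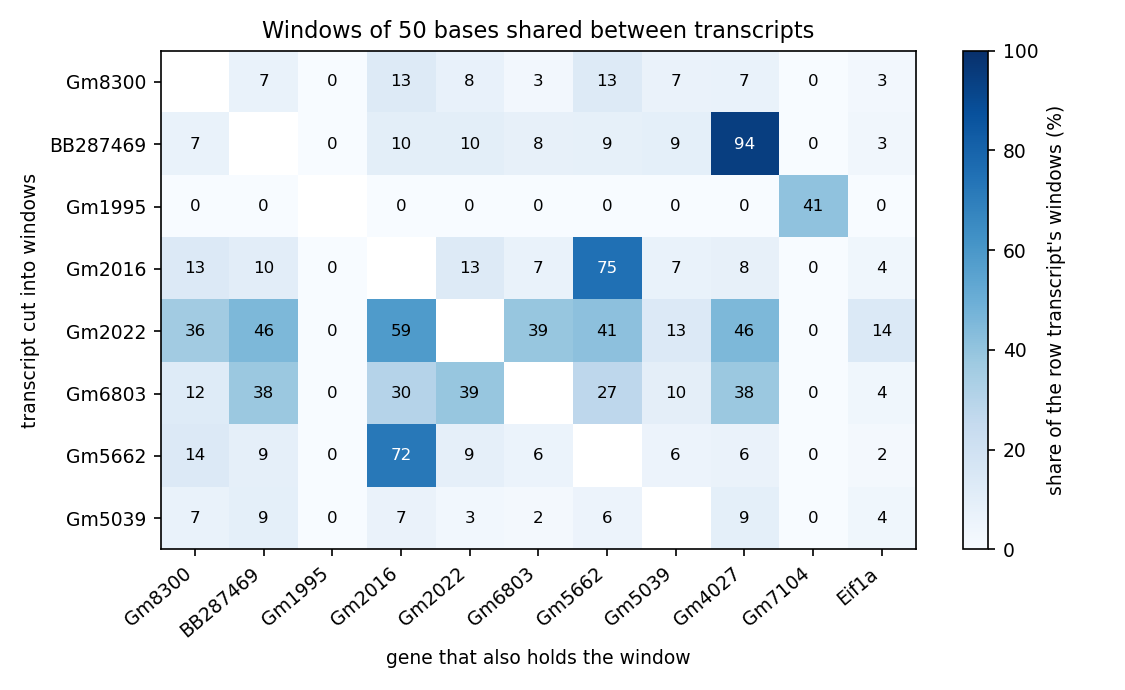
Share of each member's transcript (rows), in windows of 50 bases on the same strand, that also occurs in another gene (columns), in percent of the row's windows; blank cells are a transcript against itself. Gm2016 with Gm5662 and BB287469 with Gm4027 stand out, and Gm1995 shares windows with Gm7104 and with no member. The short transcripts of Gm2022 and Gm6803 share up to 58.6% (with Gm2016) and 39.1% (with Gm2022). Gm8300 and Gm5039 share at most 13.3% and 9.24% with any single gene shown.

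The targeted genes followed the labels, with Ldha at 154 in Ldha_KO against 1711 to 2237 in the other libraries, and Ldhb at 5.74 in Ldhb_KO against 76.5 to 158. All levels are deposited values read as FPKM, a unit scaled by transcript length. Levels of different genes are compared on that reading, and those of near-identical copies can hold each other's reads. The values of a library summed to between 471595 and 526316. All 10 embryonic stem cell markers lay between 80.9 and 2630 in every library and 0 were called against WT. Their log2(FPKM + 1) differences from WT lay between -0.53 and 0.15 in SO and between -0.88 and 0.49 in Ldhb_KO. In Ldha_KO they lay between -0.95 (Utf1, 278, WT 538) and 0.63, with a median of -0.35. Between the knockouts 1 was called lower in Ldha_KO, Tdgf1 (505 against 1056), and Sox2 was at 204 against 389, and their part in the results was not tested. Of 10 fibroblast or feeder markers, Dcn and Lum were listed at 0 in every library, Postn and Twist2 did not exceed 0.08, and the list summed to between 42.1 and 52.3, of which Thy1 made up 36.9 to 47.4. Of that list Pdgfrb alone was called against WT, higher in SO (3.35, WT 0.949) and in Ldhb_KO (3.63), with 2.80 in Ldha_KO; its part in the results was not tested. Low values of the same gene step by the value of 1 read, and the ratio of that step between WT and SO varied by 0.0167% (10th to 90th percentile over 348 genes), between the knockouts by 0.218%, and between WT or SO and a knockout by 0.431% to 0.604%. By this measure WT goes with SO and the knockouts with each other, and the cluster was high in 1 library and low in 1 library of each pair. The ratios used were those near their most common value. They take low values as whole reads, an assumption that does not hold for every row. What sets these pairs apart, and its part in the results, was not tested. With 1 library per group there is no replicate error on any value and each difference compares libraries, not conditions. In bulk RNA, more cells in the 2-cell state and more of these transcripts per cell cannot be told apart.

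Summed over the 8 members, the cluster was at 11.1 FPKM in WT and 9.93 in Ldhb_KO, against 111 in SO and 82.4 in Ldha_KO. SO and Ldha_KO were high, and WT and Ldhb_KO were low and close to each other. The sum was 9.997-fold higher in SO than in WT and 7.44-fold higher in Ldha_KO, while in Ldhb_KO it was 0.896 of the WT level. On the log2(FPKM + 1) scale, where a difference of 1 or more in size is called, these differences were 3.21, 2.79 and -0.14. Between the knockouts the sum was 8.30-fold higher in Ldha_KO, a difference of 2.93, and SO lay 1.34-fold above Ldha_KO, a difference of 0.42 that was not called.

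In each of the 8 members both SO and Ldha_KO lay above both WT and Ldhb_KO. In 7 of 8 the highest library was SO, and for Gm6803 it was Ldha_KO. All passed the filter of 1 FPKM in at least 1 library, but 4 of them, BB287469, Gm1995, Gm2022 and Gm6803, did so only through SO or Ldha_KO. By the rule of a log2(FPKM + 1) difference of 1 or more, 7 of 8 were called higher in SO than in WT and 0 lower. Of the 13142 genes that passed the filter, 2.69% were called higher and 0.472% lower. In Ldha_KO against WT 7 of 8 were again called higher and 0 lower, against 2.65% and 1.06% of genes. In Ldhb_KO 0 of 8 were called, against 3.36% of genes called higher and 1.09% lower, with 4 members above 0 and 4 below. In Ldha_KO against Ldhb_KO 8 of 8 were called higher and 0 lower, against 1.67% and 1.54% of genes, and in SO against Ldha_KO 0 of 8, against 0.746% higher and 1.1% lower. The 3 comparisons with WT share that library. Since these contrasts were known when the members were chosen, nothing is read from the distance between these counts and the background.

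**Figure D2:**
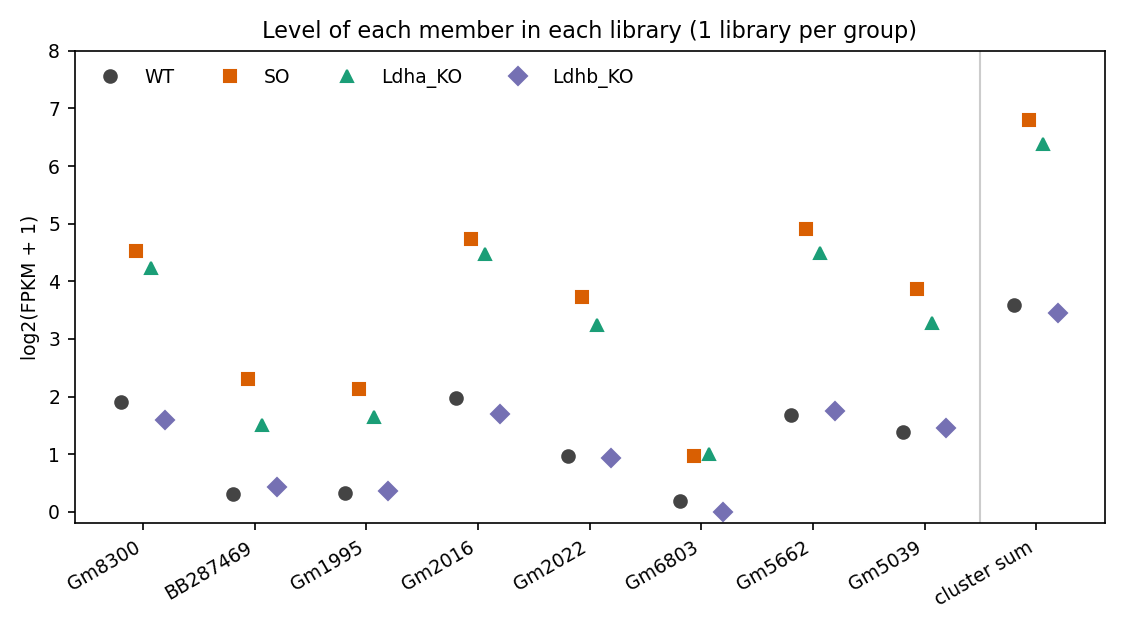
Level of each member and of the cluster sum, as log2(FPKM + 1) on the vertical axis, in each library; each point is 1 library and there is no error bar. In every member SO and Ldha_KO lie above WT and Ldhb_KO, and the sum was 3.21 and 2.79 above WT on this scale in SO and Ldha_KO.

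On the log2(FPKM + 1) scale Gm5662 had the largest difference between SO and WT of the members, while by plain fold BB287469 (17.0) and Gm1995 (13.4) lay above it. It was at 2.21 in WT and 2.37 in Ldhb_KO, against 29.1 in SO and 21.4 in Ldha_KO, so that SO was 13.2-fold and Ldha_KO 9.69-fold above WT. Its log2 difference of 3.23 in SO was the 3rd highest of the 13142 genes. Gm2016, which shares most of its transcript with Gm5662, was at 2.91 in WT and 2.25 in Ldhb_KO, against 25.5 in SO and 21.1 in Ldha_KO. The pair summed to 5.12 in WT and 4.62 in Ldhb_KO, against 54.6 in SO and 42.5 in Ldha_KO. A split of shared reads within this pair would leave its sum as it is, but reads that were dropped, counted more than once or given to other copies would not.

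Gm8300 and Gm5039 carry the most sequence of their own among the Eif1a-like copies and were also high in SO and Ldha_KO. Gm8300 was at 2.77 in WT and 2.02 in Ldhb_KO, against 22.0 in SO and 17.8 in Ldha_KO, which is 7.97-fold higher in SO than in WT and 6.45-fold higher in Ldha_KO. Gm5039 was at 1.62 in WT and 1.74 in Ldhb_KO, against 13.5 in SO and 8.67 in Ldha_KO, which is 8.38-fold and 5.37-fold higher. Both were called higher in SO and in Ldha_KO and neither was called in Ldhb_KO. Their joint sum was 8.12-fold above WT in SO, 6.05-fold in Ldha_KO and 0.858 of WT in Ldhb_KO. Gm8300 still shared 426 of its 1824 windows with other members, and the part of shared reads in these values was not tested.

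Gm2022 was at 0.952 in WT and 0.905 in Ldhb_KO, against 12.3 in SO and 8.42 in Ldha_KO. It was 12.9-fold above WT in SO and 8.85-fold in Ldha_KO, but its GENCODE transcript covers only the coding sequence and has almost no window of its own. Its value can hold reads of the other copies.

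BB287469 was at 0.234 in WT and 0.355 in Ldhb_KO, against 3.97 in SO and 1.83 in Ldha_KO. The smallest whole numbers of reads that give these values are 5 in WT and 8 in Ldhb_KO, against 89 in SO and 39 in Ldha_KO. The ratio to WT was 17.0 in SO, 7.85 in Ldha_KO and 1.52 in Ldhb_KO. This member passed the filter only through SO and Ldha_KO, so no interval is given. The near-identical neighbour Gm4027 was at 2.9e-05 in WT and listed at 0 in the other libraries. That value is far below the 0.0467 that 1 read was worth for BB287469, so the tables hold fractions of a read and the read numbers of BB287469 are themselves an assumption.

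Gm1995 and Gm6803 were the lowest in WT with BB287469. Gm1995, the member without an annotated coding sequence, was at 0.254 in WT and 0.293 in Ldhb_KO, against 3.40 in SO and 2.11 in Ldha_KO. Its log2 differences from WT were 1.81 in SO, 1.31 in Ldha_KO and 0.04 in Ldhb_KO. The pseudogene Gm7104, with which it shares windows, was at 0.094 in WT, 0.539 in SO and 0.434 in Ldha_KO and was listed at 0 in Ldhb_KO. Gm6803 was at 0.142, 0.952 and 1.01 in WT, SO and Ldha_KO and was listed at 0 in Ldhb_KO. If these are whole reads, the smallest numbers are 1 in WT and 0 in Ldhb_KO, against 7 each in SO and Ldha_KO. The plain ratio of SO to WT was 6.69, on this thin base. Its log2 differences from WT of 0.77 in SO and 0.81 in Ldha_KO were not called. Only BB287469 and Gm6803 resolved into whole reads with at most 5 in WT, and this search was chosen after the values were seen.

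The make-up of the sum changed less than its size. Gm5662, Gm2016, Gm8300 and Gm5039 together gave 85.7% of it in WT and 84.4% in Ldhb_KO, against 81.4% in SO and 83.8% in Ldha_KO. Gm5662 went from 19.9% in WT to 26.3% in SO and 26.0% in Ldha_KO and was at 23.8% in Ldhb_KO. Gm8300 gave 25.0% in WT and 19.9% to 21.7% elsewhere, and Gm2016 gave 22.7% to 26.3%. In Ldhb_KO, where the sum was lowest, Gm5039 had its largest share, 17.5% against 10.5% to 14.6% elsewhere. No error can be given for these shares, and members next to each other in the order of levels cannot be said to differ.

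**Figure D3:**
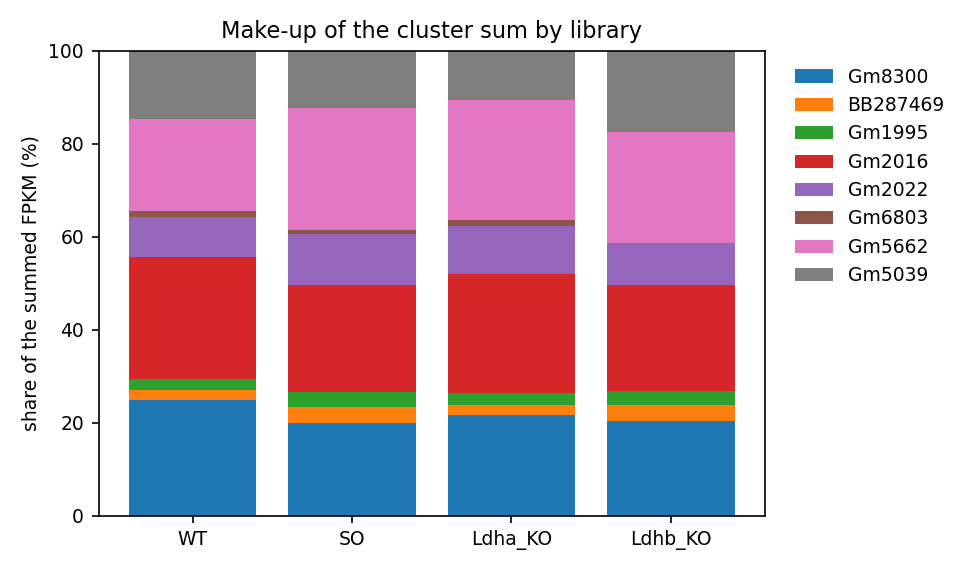
Share of each member in the summed FPKM of the cluster, in percent, for the 4 libraries (1 bar per library). Gm5662, Gm2016, Gm8300 and Gm5039 make up 81.4% to 85.7% of the sum in every library.

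On the same per-length scale the cluster came close to the level of the canonical genes in SO. Eif1a was at 133 in WT and 99.9 in Ldhb_KO, against 107 in SO and 123 in Ldha_KO. Eif1ax was at 54.7 in WT and 42.2 in Ldhb_KO, against 36.7 in SO and 40.3 in Ldha_KO. In the deposited values WT was the highest library for both, unlike for the cluster, but WT also had the largest summed value. Neither gene was called against WT. For Eif1a the log2 difference of Ldha_KO from WT was -0.11, and rescaling moved the median of all genes there by 0.11 to 0.12. Whether WT exceeded Ldha_KO for Eif1a thus depends on the scaling. The 7 Eif1a-like members summed to 10.8 in WT, which is 5.76% of the sum of Eif1a and Eif1ax there. In SO they summed to 107, or 75.0% of that sum, in Ldha_KO to 80.3, or 49.0%, and in Ldhb_KO to 9.64, or 6.78%. The part in these shares of reads that fit several copies, or a copy and Eif1a, was not tested.

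Against WT, translation initiation genes were called at about the rate of all genes or above it. Of 48 genes of this list, all kept, 1 was called higher and 1 lower in SO against WT, with a median of -0.28 beside -0.04 over all kept genes, whose shares called were 2.69% higher and 0.472% lower. In Ldha_KO and in Ldhb_KO 2 were called higher and 1 lower, with medians of -0.20 and -0.28, where 2.65% and 3.36% of all kept genes were called higher and 1.06% and 1.09% lower. These counts are too close to the background to be results about the list. Between the knockouts 0 were called, where 1.67% of all kept genes were called higher and 1.54% lower. In SO against Ldha_KO 1 was called lower, Eif4g3, and 0 higher, where 0.746% were called higher and 1.1% lower. These counts too are near the background. Those called against WT were Eif3j1 (1.69 in WT and 0.102 to 0.111 elsewhere), Eif3j2 (0.001 in WT and 1.005 to 1.70 elsewhere) and, in the knockouts only, Eif4g3 (3.75 in WT and 4.74 in SO, against 10.5 in Ldha_KO and 11.1 in Ldhb_KO). Eif3j1 and Eif3j2 are copies of the same eIF3 subunit gene, so their opposite values are uncertain. The partner of eIF1A, Eif1, was at 286 in WT and between 256 and 369 elsewhere, and Eif1b at 36.5 in WT and between 34.8 and 51.6 elsewhere. Eif5, which stimulates GTP hydrolysis at the start codon, was at 163 in WT and between 97.1 and 127 elsewhere. Eif5b, which joins the ribosomal subunits, lay between 48.2 and 54.4 and Eif1ad between 35.3 and 46.9. None of these 5 genes was called in any of the 5 comparisons.

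Genes around the cluster on chromosome 12 are given for context. RefSeq (GRCm38.p6) lists 60 genes from the first to the last member, of which 43 are pseudogenes, and 117 when 1 Mb on each side is added. Of the 117, 36 that are not members had a row in the tables and 20 were kept, all of them outside the stretch from Gm8300 to Gm5039. Of these 20, 0 were called in SO and 0 in Ldha_KO against WT, where 2.69% and 2.65% of all kept genes were called higher and 0.472% and 1.06% lower. With 20 genes a count of 0 is near that background and is not a result about the neighbours. Their differences lay between -0.65 and 0.52 in SO and between -0.61 and 0.55 in Ldha_KO. The lowest in SO was Ngb, the brain oxygen carrier neuroglobin (1.21, WT 2.47), and the highest Angel1 (11.2, WT 7.47). In Ldhb_KO 1 was called lower, Irf2bpl (16.0, WT 37.2), and between the knockouts 1 was called higher in Ldha_KO, the demethylase gene Alkbh1 (25.3 against 10.9). Inside the stretch, 8 genes that are not members had rows, and none exceeded 0.539 in any library. Among 9 other genes of chromosome 12 with a coding sequence at least 60% identical to a member's, 2 had rows, Gm4027, given above, and Gm21319, at 0.133 in SO and 0.093 in Ldha_KO with the other libraries listed at 0. The other 7 were not analysed here.

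**Figure D4:**
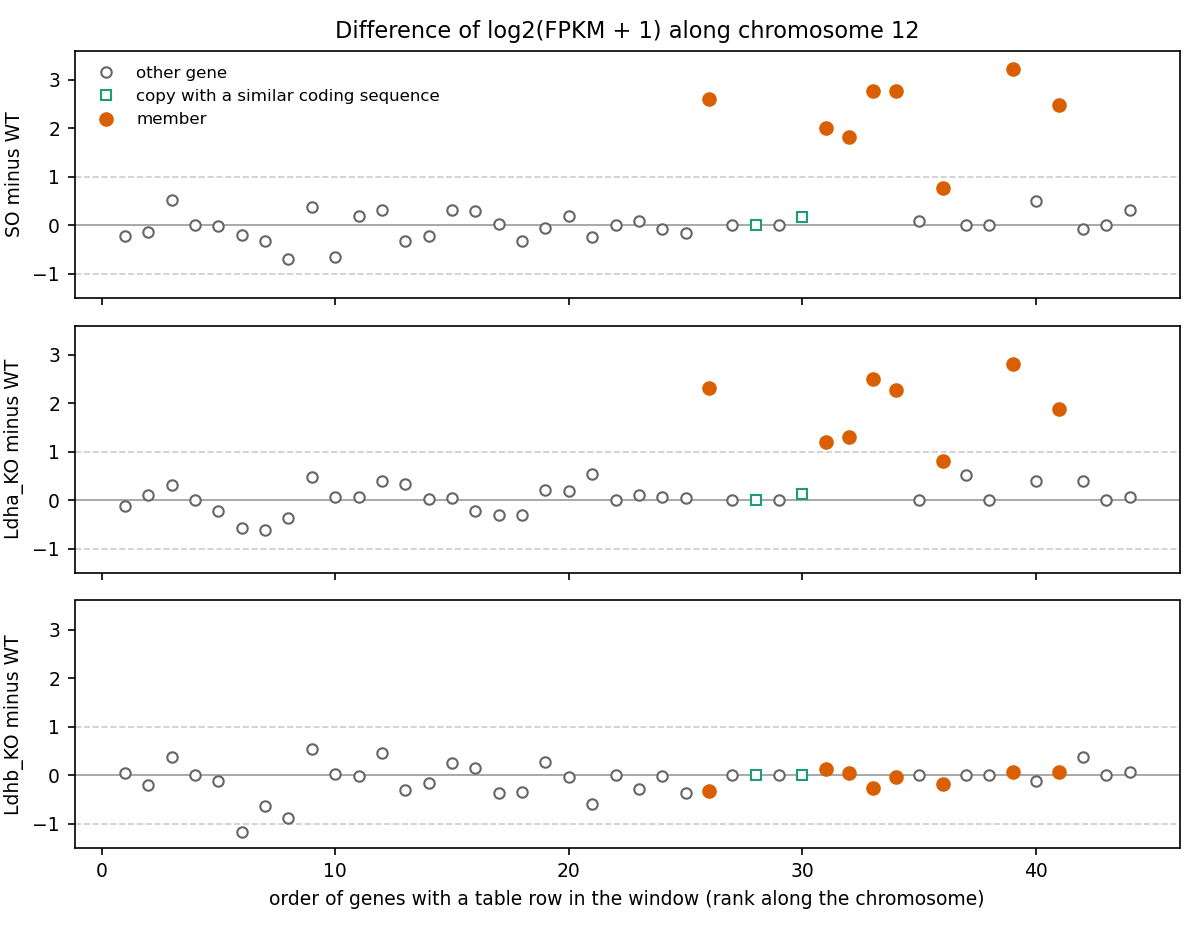
Difference of log2(FPKM + 1) from WT (vertical axis) in SO, Ldha_KO and Ldhb_KO for the 44 genes with a table row in the window, in their order along chromosome 12 (horizontal axis); dashed lines mark a difference of 1 in size, and open points include genes below the filter. Members stand at 0.77 to 3.23 in SO and at 0.81 to 2.80 in Ldha_KO, while kept neighbours stay between -0.65 and 0.55 in both, and in Ldhb_KO the members stay between -0.32 and 0.14.

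Genes outside the cluster with the most similar pattern were sought over the 4 libraries, by the distance between the centred log2(FPKM + 1) values of a gene and of the cluster sum, among 9765 genes at 5 or more in at least 1 library. Of the 10 nearest, 8 stood in the list of other 2-cell genes, which was drawn up with earlier results of these data known. The overlap is thus a description, and no support is read from it. The 8 were Usp17lb, Usp17le and Usp17la, which encode deubiquitinases, Zscan4d, Zscan4c and Zscan4a, and Gm20767 and Tcstv3, all on chromosome 7 or 13. The nearest, Usp17lb, had a distance of 0.65 and was at 0.815 in WT and 0.829 in Ldhb_KO, against 9.49 in SO and 8.83 in Ldha_KO. The other 2 were Gm21761 and Gm4971. Gm21761 was at 11.1 in WT and 9.60 in Ldhb_KO, against 73.7 in SO and 41.7 in Ldha_KO. Gm4971 was at 1.75 in WT and 0.964 in Ldhb_KO, against 12.04 in SO and 7.79 in Ldha_KO. The members themselves lay at 0.18 (Gm5662) to 2.21 (Gm6803) from the sum, with the low members Gm1995, BB287469 and Gm6803 farthest.

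Other 2-cell genes were compared as a list of 54 names, of which 52 had a row and 28 were kept. Earlier results of these data were known when it was drawn up. In SO against WT 21 of 28 were called higher and 0 lower, with a median of 1.61. In Ldha_KO 15 were called higher and 0 lower with a median of 1.04. In Ldhb_KO 0 were called higher and 1 lower, Zfp534 (12.01, WT 25.3), with a median of -0.02. Of all kept genes 2.69%, 2.65% and 3.36% were called higher in SO, Ldha_KO and Ldhb_KO, and 0.472%, 1.06% and 1.09% lower. With this pseudocount of 1, the counts in Ldhb_KO are near that background and are not a result about the list. The members' medians in the same comparisons were 2.54, 2.08 and 0.00, and those of all kept genes -0.04, -0.03 and -0.02. Zscan4c, of a family that acts on telomeres in these cells, was at 2.03 in WT and 2.06 in Ldhb_KO, against 16.9 in SO and 10.6 in Ldha_KO. Its difference of 2.56 between SO and WT was the largest of the list, before Usp17lb (2.53), Zscan4a (2.53) and Zscan4d (2.51). Dux, a master activator of the 2-cell programme, stayed under the filter, at 0.161 in SO and 0.254 in Ldha_KO with the other libraries listed at 0.

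Promoter windows, from 250 bases before to 50 after the annotated start, were held by the RefSeq table of GRCm38.p6 for 2 of the 8 members, BB287469 and Gm6803. They are shown because they are the members with a window in that table. The files were made on mm9, and the positions are those of GRCm38.p6. The window of BB287469 is chr12:87816327-87816626 on the plus strand and that of Gm6803 chr12:88018958-88019257 on the minus strand. Capitals mark a match to a motif named below on either strand.
BB287469: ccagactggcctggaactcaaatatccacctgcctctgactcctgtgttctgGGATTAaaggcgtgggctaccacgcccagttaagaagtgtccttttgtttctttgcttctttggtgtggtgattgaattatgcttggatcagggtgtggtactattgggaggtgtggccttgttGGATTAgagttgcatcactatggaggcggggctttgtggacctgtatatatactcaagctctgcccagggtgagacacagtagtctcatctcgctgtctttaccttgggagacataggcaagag
Gm6803: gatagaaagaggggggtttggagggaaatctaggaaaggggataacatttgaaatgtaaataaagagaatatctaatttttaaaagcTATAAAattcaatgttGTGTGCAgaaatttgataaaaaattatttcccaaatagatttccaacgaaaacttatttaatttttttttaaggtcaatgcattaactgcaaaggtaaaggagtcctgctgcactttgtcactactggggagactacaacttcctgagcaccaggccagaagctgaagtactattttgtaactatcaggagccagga

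The motifs were searched on both strands in 32851 windows of 300 bases. The Dux-type paired homeobox motif was in neither promoter and in 0.116% of all windows. The Obox or Otx type motif TAATCC occurred 2 times in the window of BB287469, first at position -198 from the start, and in 7.06% of all windows. In the window of Gm6803, the Zscan4 type motif TGCACAC occurred once at -147 (4.40% of all windows) and the TATA box motif TATAAA once at -163 (13.6% of all windows). The windows of these members thus shared no motif of those searched. Other forms of a motif, such as the tatatata in the window of BB287469, were not searched for.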

How the data were processed

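Polyadenylated RNA of mouse embryonic stem cells was measured in 4 libraries, 1 per group, grouped by the treatment label. Per the submitters' processing notes, tools were Bowtie2 2.3.4.3, SAMtools 1.9, edgeR 3.26.8 and HTSeq 0.11.2, with no role given, on mm9. The deposited values were read as FPKM made by the authors, from the values alone. The values alone do not separate FPKM from RPKM, and the sources used here do not give the depth.

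Differences are of log2(FPKM + 1), with a pseudocount of 1, over 13142 of 25170 genes with at least 1 in at least 1 library. A difference of 1 or more in size was called. Such differences understate the change of low genes. The rule was tested on simulated data only for genes at 5 or more in WT, a level that no member reached there. That test therefore does not speak for calls on the members. The members and gene lists were chosen with earlier results of these data known. Named genes were the 8 members, neighbours within 1 Mb, the 10 genes most like the sum, listed initiation factors and list genes with a call, and examples of other 2-cell genes. The plan to find copies by protein identity was replaced by coding sequence identity, since no protein sequences were used here. Alternatives were a pseudocount of 0.1, no filter or a filter of 5, rescaling to the summed value or the median ratio to WT, and smaller sums. Sequences came from GENCODE M21 transcripts and RefSeq, both on GRCm38. Python 3.11.15, pandas 2.3.3, numpy 2.4.6 and scipy 1.17.1 were used.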

Additional observations from a re-analysis of the deposited data

How the results depend on the processing

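The cluster sum kept its direction and its side of the call threshold in all 5 comparisons under each alternative run. The log2 difference of SO from WT ranged from 2.76 to 3.37 and that of Ldha_KO from 2.35 to 2.93. That of Ldhb_KO from WT ranged from -0.21 to -0.00. The lowest values in SO and Ldha_KO came from the sum of Gm8300 and Gm5039 alone, which, like the sum without Gm1995, was added after the data were seen. With a pseudocount of 0.1, 1 member was called in Ldhb_KO against WT (Gm6803, -1.28) and 1 in SO against Ldha_KO (BB287469, 1.08), and Gm6803 was called higher in SO (2.12) and in Ldha_KO (2.19). That pseudocount also called 6.15% of all kept genes higher in SO against WT, 6.60% in Ldha_KO and 8.68% in Ldhb_KO. The shares called lower were 1.38%, 2.44% and 2.37% in the same order. In SO against Ldha_KO it called 2.75% higher and 2.69% lower, and in Ldha_KO against Ldhb_KO 3.19% and 4.37%. With a filter of 5, 5 members were kept and 5 called higher in Ldha_KO against Ldhb_KO, where 1.64% of genes were called higher. The difference of Gm2022 in Ldhb_KO from WT, -0.03, turned to 0.023 after scaling each library to the sum of WT and to 0.040 with the median ratio. These scalings moved the median of all genes against WT by 0.11 to 0.14. With windows of 100 bases, 96.2% of those of Gm5039, 89.2% of Gm8300, 41.6% of Gm5662, 35.3% of Gm2016 and 8.68% of BB287469 occurred in no other gene. Under a pseudocount of 0.1, the other 2-cell genes called in either direction were 23 in Ldha_KO and 7 in Ldhb_KO against WT. Between the knockouts they were 23. The pseudocount of 1 gave 15, 1 and 13 in the same order, so these counts depended on the pseudocount. The depth of the libraries limits members below 1 FPKM in WT. No paired analysis was possible because each group holds 1 library.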

Other observations

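By the rule of a log2(FPKM + 1) difference of 1 or more, some other 2-cell genes were called between SO and Ldha_KO, and no cluster member was. In plain ratio the member BB287469 was 2.17-fold higher in SO than in Ldha_KO (3.97 against 1.83). The median log2 differences were alike, 0.46 over the members and 0.44 over the kept other 2-cell genes. These counts therefore do not set the cluster apart from the other 2-cell genes. Of 28 other 2-cell genes that were kept, 3 were called higher in SO than in Ldha_KO and 0 lower, where 0.746% of all kept genes were called higher. They were Pramel7, a member of the Prame-like family of pluripotent cells (11.6 in SO and 3.04 in Ldha_KO), Trim43a (5.13 and 1.08) and Tdpoz4 (4.10 and 1.06). In WT Pramel7 was at 2.09, Trim43a at 0.516 and Tdpoz4 at 0.525. These genes were named after their values were seen, and the values compare 2 libraries.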
